A study of Mus musculus with 18 samples.

Results

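Transcripts of SLAM receptors, of adaptors that bind them and of a further adaptor, Sh2d2a, were followed in mouse lymphocytes. These were type 1 innate lymphoid cells (ILC1s) and natural killer (NK) cells. The set comprised 8 genes of the 46078 in the count table, taken by symbol: the adaptor genes Sh2d1a, Sh2d1b1 and Sh2d2a, and the receptor genes Slamf6, Slamf7, Cd48, Cd84 and Ly9. All 8 passed the filter on low counts, which kept 14714 genes. All mice were C57BL/6, 8 weeks old, and all carried Ncr1-Cre, a Cre recombinase under the control of the gene for NKp46. Control mice carried Ncr1-Cre alone, and the other mice also carried Rosa26-RARα403 (called RARa403 here), a truncated retinoic acid receptor α known to act as a dominant negative. By its title, the series concerns the dependence of ILC1s on retinoic acid receptors. Liver ILC1s, spleen ILC1s and liver NK cells were sorted from both genotypes as CD3- NK1.1+ NKp46+ cells, the ILC1s as CD49a+, low in CD49b and IL-7R+, and the NK cells as CD49a- CD49b+. Each of the 6 groups had 3 libraries, each made from 200 cells. Which libraries came from the same animal is not labelled, so the p-values measure only the spread between these libraries, which may be technical.

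SLAM receptors are immunoglobulin-family molecules on the surface of blood cells, and most of them bind the same receptor on a neighbouring cell. Their cytoplasmic tails carry tyrosine motifs that bind small adaptors made of little more than an SH2 domain: SAP, encoded by Sh2d1a, which recruits the kinase FYN, and EAT-2, encoded by Sh2d1b1. In NK cells the adaptors make these receptors activating, and in their absence the tails can bind inhibitory phosphatases instead. CD48 differs from the others in having no cytoplasmic tail and in serving as the ligand of the receptor encoded by Cd244a. Sh2d2a encodes TSAd, a larger adaptor with an SH2 domain that binds the kinase LCK.

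The 5 receptor genes lie together on chromosome 1 (mm10), within 364.5 kb between 171588624 and 171953170, in the order Ly9, Slamf7, Cd48, Cd84 and Slamf6. Sh2d1b1 lies on the same chromosome at 170277320 to 170286769. Sh2d1a lies on chromosome X at 42502453 to 42529330, and Sh2d2a on chromosome 3 at 87846755 to 87855722. Exons of Sh2d1a overlap those of Tenm1 on the other strand, and Tenm1 had 79 counts over all 18 libraries. An antisense gene, Gm37787, overlaps exons of Slamf7 and had 435 counts, and Cd244a overlaps Ly9 on the other strand without a shared exon. Sh2d1b2, a close copy of Sh2d1b1, reached at most 39 counts in a library, and how reads shared by the copies were counted is not stated, so the level of Sh2d1b1 is uncertain to that extent.

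A promoter entry in RefSeq's GRCm38.p6 table, covering 250 bases before to 50 bases after the start, was found for 5 of the 8 genes (Sh2d1b1, Slamf7, Cd48, Cd84 and Slamf6). The window of Slamf7 (chr1:171648950-171649249, minus strand) lies inside the GENCODE gene, which begins at 171653035 on that strand, so it stands for another start. These windows were searched on both strands for AGGTCA, the half-site bound by retinoic acid receptors, for AGGTGTG, the T-box half-site, and for TGTGGT, the RUNX core. The letters were found in 16.2%, 5.86% and 16.7% of 32544 promoter windows in that order. AGGTCA was found in 1 of the 5 windows, that of Cd84, beginning 243 bases before the start. TGTGGT was found in those of Cd84 and Cd48 and, on the other strand, in that of Sh2d1b1, and no match overlapped another. The T-box letters were in none of the 5 windows. The windows of Cd84 (chr1:171839447-171839746, plus strand), which holds the receptor half-site, and of Cd48 (chr1:171681742-171682041, plus strand), the receptor transcript with the highest level per length, are shown with the matches in capitals.
Cd84: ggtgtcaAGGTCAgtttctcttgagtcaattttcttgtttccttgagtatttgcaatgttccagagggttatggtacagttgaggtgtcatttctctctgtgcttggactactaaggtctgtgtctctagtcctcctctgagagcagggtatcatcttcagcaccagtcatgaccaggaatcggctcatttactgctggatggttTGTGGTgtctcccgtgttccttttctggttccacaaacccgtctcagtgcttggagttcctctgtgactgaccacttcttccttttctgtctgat
Cd48: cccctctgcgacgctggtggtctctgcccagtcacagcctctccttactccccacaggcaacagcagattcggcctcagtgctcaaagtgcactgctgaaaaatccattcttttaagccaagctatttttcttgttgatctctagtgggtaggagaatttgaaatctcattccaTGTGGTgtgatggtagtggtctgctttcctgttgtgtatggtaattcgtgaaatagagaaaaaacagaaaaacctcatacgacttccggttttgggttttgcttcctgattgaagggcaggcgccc
A match describes the letters only.

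The libraries held 3452279 to 9038767 counts, so that 3 counts stand for 0.332 to 0.869 CPM, the counts of a gene scaled to a common library total. The labelled cell types were set against their marker lists. The summed CPM of 9 NK cell markers was 11251 to 15475 in control NK cells and 1044 to 2160 in control ILC1s of both organs. That of 8 ILC1 markers was 48.7 to 115 in control NK cells and 1533 to 3207 in control ILC1s. In RARa403 NK libraries 1 to 3 the NK list summed to 5709, 13906 and 11973 and the ILC1 list to 408, 31.7 and 218. A list of 12 T cell genes summed to 1614, 734 and 918 in these libraries, beside 726 to 805 in control NK cells. Liver NK RARa403 library 1 stood apart: of 2735 genes above 50 CPM in the other libraries, 7.02% had at most 3 counts in it, against 0 genes in each of the other 17 libraries. It held 0 counts of Sh2d1b1, and its weight in a value of RARa403 NK cells is shown by giving the value without it.

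**Figure D1:**
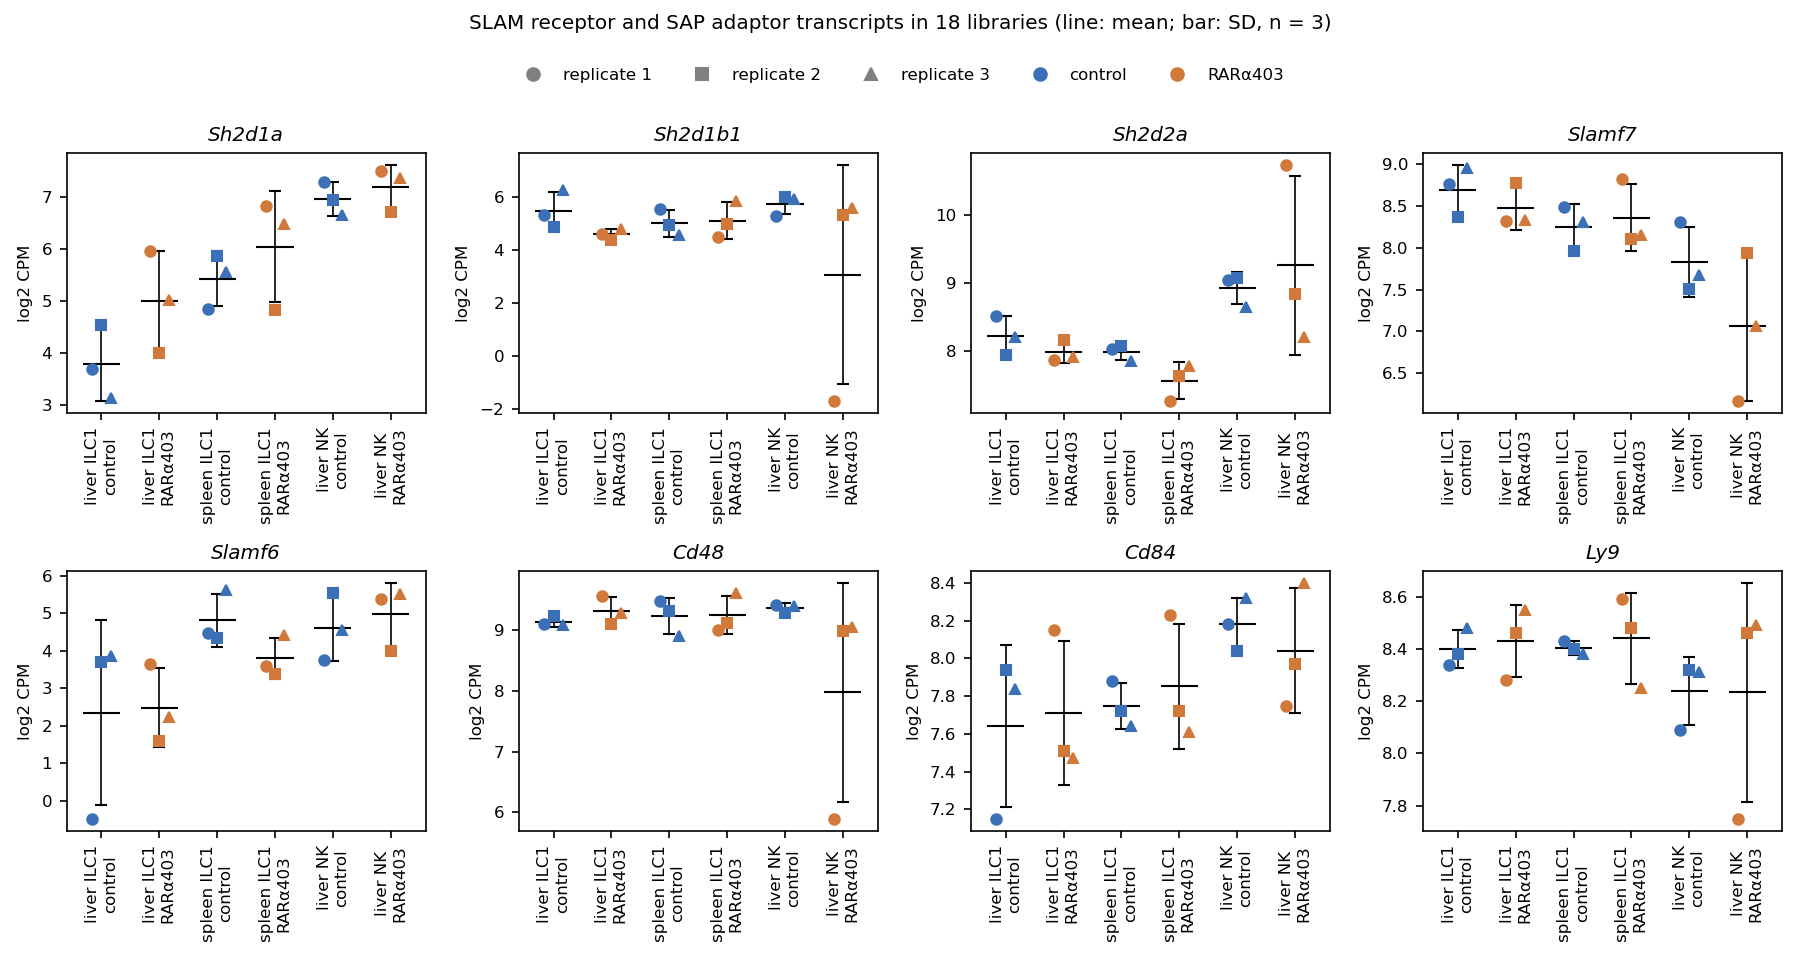
Levels of the 8 genes in the 18 libraries, as log2 CPM, with a separate vertical scale for each gene; points are libraries, shaped by replicate and coloured by genotype, lines are means and bars the SD (n = 3). Sh2d1a runs from 3.13 to 4.54 in control liver ILC1s and from 6.65 to 7.29 in control liver NK cells, Ly9 stays between 7.75 and 8.59, and liver NK RARa403 library 1 is the lowest point for Sh2d1b1 and Cd48.

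Sh2d1a, the gene for SAP, was lower in liver ILC1s than in liver NK cells of control mice. In control liver ILC1s its level was 3.68, 4.54 and 3.13 log2 CPM in libraries 1 to 3, from 92, 80 and 39 counts. In control liver NK cells it was 7.29, 6.94 and 6.65, from 1005, 1100 and 568 counts. Every NK cell library was above every liver ILC1 library. The transcript was 8.65-fold lower in liver ILC1s, a log2 difference of -3.11 (SE 0.59, edgeR's quasi-likelihood test, Benjamini-Hochberg adjusted p = 0.0232 over 14714 genes). It was the 1 member of 8 past the threshold of 0.05 in this comparison, in which 89 genes, or 0.605% of those tested, passed in either direction and 26, or 0.177%, were lower in ILC1s. In a pool of sorted cells, fewer cells with the transcript and less of it per cell cannot be told apart.

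With 3 libraries a group, the call for Sh2d1a depended on single libraries. The log2 difference stayed between -3.59 and -2.84 in 17 alternative fits, of which 11 passed the threshold (DESeq2 adjusted p = 8.67e-06). The others were fits with fewer libraries. The adjusted p rose to 0.127 and 0.14 without control liver ILC1 library 1 or 3, and to 0.0902, 0.0691 and 0.0756 without control NK library 1, 2 or 3. In replicates 2 and 3 alone, whose library codes open with another number than those of replicate 1, the difference was -2.86 with an adjusted p of 0.0545. Between the libraries of replicate 1 it was -3.61 in log2 CPM. Replicate numbers paired these libraries, and with the replicate number within genotype as a block 29 genes passed instead of 89, with Sh2d1a among them (edgeR, adjusted p = 0.0183).

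Control spleen ILC1s lay between the other populations for Sh2d1a, at 4.85, 5.87 and 5.56 log2 CPM. These values were all above the control liver ILC1 libraries and all below the control NK libraries. The log2 difference was 1.61 from liver ILC1s (SE 0.56, adjusted p = 1) and -1.50 from NK cells (SE 0.55, adjusted p = 0.514), and neither passed the threshold. In RARa403 mice Sh2d1a was at 5.95, 4.0 and 5.01 log2 CPM in ILC1s of the liver, 6.82, 4.83 and 6.48 in those of the spleen and 7.49, 6.70 and 7.37 in liver NK cells. The liver ILC1 libraries of this genotype again lay below its NK libraries. The log2 difference was -2.04 (SE 0.56, adjusted p = 0.183 in edgeR), and -1.87 (adjusted p = 0.284) without liver NK RARa403 library 1. DESeq2 gave an adjusted p of 0.0117 and limma-voom one of 0.0243 for it over all libraries. From low to high the log2 CPM group means of Sh2d1a were 3.78 and 4.99 for liver ILC1s (control, then RARa403), 5.43 and 6.05 for spleen ILC1s, and 6.96 and 7.19 in liver NK cells. The libraries of each group overlapped those of the next group in that order.

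Other measures of the libraries were set beside Sh2d1a. Sh2d1a is X-linked, and Xist, which is made from the inactive X, reached 596 to 1404 counts in 6 libraries, library 3 of each control group and library 2 of each RARa403 group. The remaining 12 libraries had 28 Xist counts or fewer. In 5 of the 6 groups the library with many Xist counts was the one with the lowest Sh2d1a, spleen ILC1 control being the exception. The share of all genes with that pattern is not given. Within a genotype the libraries with many Xist counts have the same number and may come from the same animal. The 6 groups may therefore not be separate observations. With a term for these libraries the difference between control liver ILC1s and NK cells was -3.18 (edgeR, adjusted p = 0.00912). SAP is also made by T cells, and the summed CPM of 12 T cell genes was 1797 to 2053 in control liver ILC1s and 726 to 805 in control NK cells, where Cd5, Cd6, Cd8a and Cd8b1 were at 0. The population lower in Sh2d1a was thus the one higher in that list, and the part of the T cell transcripts in the levels of Sh2d1a was not tested.

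Sh2d1b1, the gene for the adaptor EAT-2, did not separate the control populations. It was at 5.31, 4.86 and 6.28 log2 CPM in control liver ILC1s, 5.30, 6.01 and 5.94 in control liver NK cells and 5.56, 4.93 and 4.56 in control spleen ILC1s. The 3 groups overlapped throughout. The log2 difference between liver ILC1s and NK cells was -0.17 (SE 0.94, adjusted p = 1), an error wide enough to hide a change of several fold. That SE also drew on liver NK RARa403 library 1, which is not compared here and had 0 counts of Sh2d1b1. The SD of its log2 CPM was 0.73 in control liver ILC1s, 0.39 in control NK cells and 4.14 in RARa403 NK cells. In CPM per kilobase of exon (RPKM), Sh2d1a stood 2.81 log2 units below Sh2d1b1 in control liver ILC1s (SD 1.42, n = 3). It stood 0.10 above it in control NK cells (SD 0.69, n = 3). The lengths used, all annotated exons together, were 5.5 kb for Sh2d1a and 2.54 kb for Sh2d1b1, and they enter both groups alike. The library values of that difference in log2 RPKM were -2.74, -1.43 and -4.27 in the ILC1s and 0.88, -0.18 and -0.41 in the NK cells, without overlap. In control spleen ILC1s they were -1.82, -0.17 and -0.11, which overlapped both. Since Sh2d1a by itself did not overlap between control liver ILC1s and NK cells, the lack of overlap in this difference is no separate result.

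Sh2d2a, the gene for TSAd, was at 8.52, 7.95 and 8.21 log2 CPM in control liver ILC1s, 8.03, 8.07 and 7.85 in control spleen ILC1s and 9.05, 9.08 and 8.65 in control liver NK cells. All NK libraries were above all ILC1 libraries of either organ. The log2 difference from NK cells was -0.70 in liver ILC1s (SE 0.45, adjusted p = 0.808) and -0.95 in spleen ILC1s (SE 0.45, adjusted p = 0.706), neither past the threshold in edgeR. limma-voom with quality weights gave adjusted p-values of 0.0382 and 0.0226 for these 2 differences. Without liver NK RARa403 library 1, which entered the shared estimate of spread, edgeR gave 0.0406 for spleen ILC1s against NK cells. That library held the highest Sh2d2a level of all, at 10.73, beside 8.84 and 8.21 in the other RARa403 NK libraries. The difference between RARa403 liver ILC1s and NK cells, -1.68 (SE 0.46, adjusted p = 0.18), was -0.56 (adjusted p = 0.602) without it and -2.08 (adjusted p = 0.0297) without library 3.

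**Figure D2:**
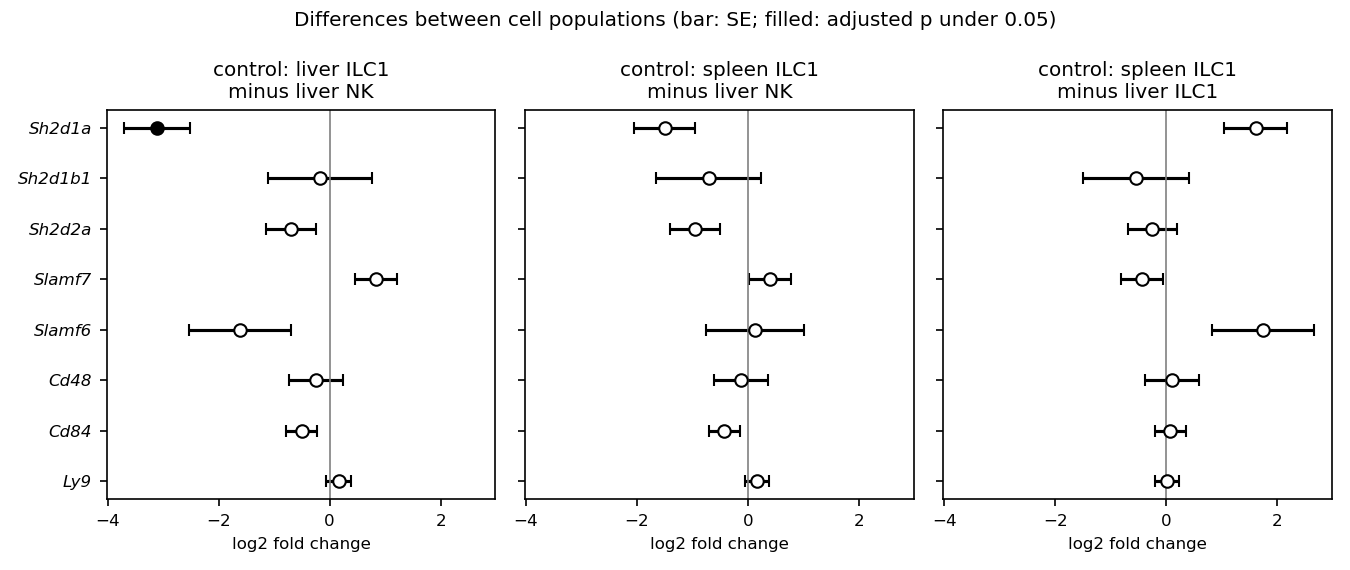
Log2 fold changes between control populations for the 8 genes, with the SE as a bar and filled points for an adjusted p under 0.05. Sh2d1a in liver ILC1s against liver NK cells, at -3.11, is the filled point, and Slamf7 lies to the right of 0 in that panel at 0.84.

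Among the receptors, Slamf7, which signals through EAT-2 in NK cells, had the largest positive difference between control liver ILC1s and NK cells. Its levels were 8.76, 8.37 and 8.95 log2 CPM in liver ILC1s and 8.31, 7.51 and 7.67 in NK cells. The lowest ILC1 library was just above the highest NK library. The log2 difference of 0.84 (SE 0.38, adjusted p = 0.608 in edgeR) did not pass. In RARa403 mice Slamf7 was at 8.32, 8.77 and 8.33 in liver ILC1s and at 6.17, 7.94 and 7.07 in NK cells, again without overlap. The log2 difference was 1.26 (SE 0.38, adjusted p = 0.208), 0.94 (adjusted p = 0.398) without liver NK RARa403 library 1, and 1.81 (adjusted p = 0.037) without library 2. Control spleen ILC1s held 8.49, 7.96 and 8.31, which overlapped both liver populations.

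Slamf6, a receptor that binds itself on other cells and uses SAP, was the least abundant member per length of exon and varied widely between libraries, from -0.48 to 5.62 log2 CPM, the low end being 1 library with 3 counts. It had 3, 44 and 65 counts in control liver ILC1s (-0.48, 3.69 and 3.85 log2 CPM) and 84, 415 and 132 counts in control liver NK cells (3.74, 5.54 and 4.56). These groups overlapped, and the log2 difference was -1.61 (SE 0.92, adjusted p = 0.73). In control spleen ILC1s it was at 4.47, 4.33 and 5.62 log2 CPM, all above control liver ILC1s, with a log2 difference of 1.75 (SE 0.92, adjusted p = 1). B cells also make Slamf6. The summed CPM of 10 B cell markers was 354, 795 and 3732 in control spleen ILC1 libraries 1 to 3 and 417, 482 and 796 in control liver ILC1s, so the library with the highest Slamf6 level was also the highest in B cell transcripts. The part of these transcripts in the Slamf6 level was not tested. In RARa403 mice Slamf6 was at 3.64, 1.59 and 2.23 in liver ILC1s, below all NK libraries of that genotype at 5.39, 4.0 and 5.51. The log2 difference was -2.41 (SE 0.94, adjusted p = 0.305), or -2.22 (adjusted p = 0.659) without liver NK RARa403 library 1, and did not pass.

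Cd48, which encodes the tailless ligand, differed little between the control groups. It was at 9.10, 9.23 and 9.09 log2 CPM in control liver ILC1s, 9.48, 9.32 and 8.91 in control spleen ILC1s and 9.42, 9.29 and 9.41 in control liver NK cells. The NK libraries were above the liver ILC1 libraries by a small margin, with a log2 difference of -0.24 (SE 0.49, adjusted p = 1). Without liver NK RARa403 library 1, where it had 242 counts and 5.89 log2 CPM, Cd48 ranged over 0.70 log2 units in 17 libraries. Its SD was then 0.21, and 28% of 186 genes within 0.5 log2 units of its mean had a smaller SD. Over all 18 libraries its SD was 0.81, and 85.5% of 207 such genes had a smaller one. Cd84, a receptor of the same cluster, was at 7.15, 7.94 and 7.84 in control liver ILC1s, 7.88, 7.72 and 7.64 in control spleen ILC1s and 8.18, 8.04 and 8.32 in control NK cells. Both ILC1 groups lay below all NK libraries, at log2 differences of -0.50 (SE 0.28, adjusted p = 0.73) in the liver and -0.43 (SE 0.28, adjusted p = 0.901) in the spleen, and neither passed.

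Ly9, a receptor that binds itself on other cells, was the steadiest of the 8. It was at 8.34, 8.38 and 8.48 log2 CPM in control liver ILC1s, 8.43, 8.40 and 8.38 in control spleen ILC1s and 8.09, 8.32 and 8.31 in control liver NK cells. The ILC1 libraries of both organs were above the NK libraries, by 0.16 on the log2 scale in each case (SE 0.22, adjusted p = 1). Over the 17 libraries other than liver NK RARa403 library 1 the SD of Ly9 was 0.12, and 0 of 454 genes within 0.5 log2 units of its mean had a smaller SD, their median being 0.27. Leaving out that library was chosen after seeing the data. With all 18 libraries the SD was 0.19, and 13 of 463 such genes, or 2.81%, were steadier. For Sh2d1a, 98.2% of genes of like level had a smaller SD over the 17 libraries and 81.2% over all 18. Over the 5 groups other than RARa403 NK cells its group means spanned 3.18 log2 units, and those of Ly9 0.20.

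**Figure D3:**
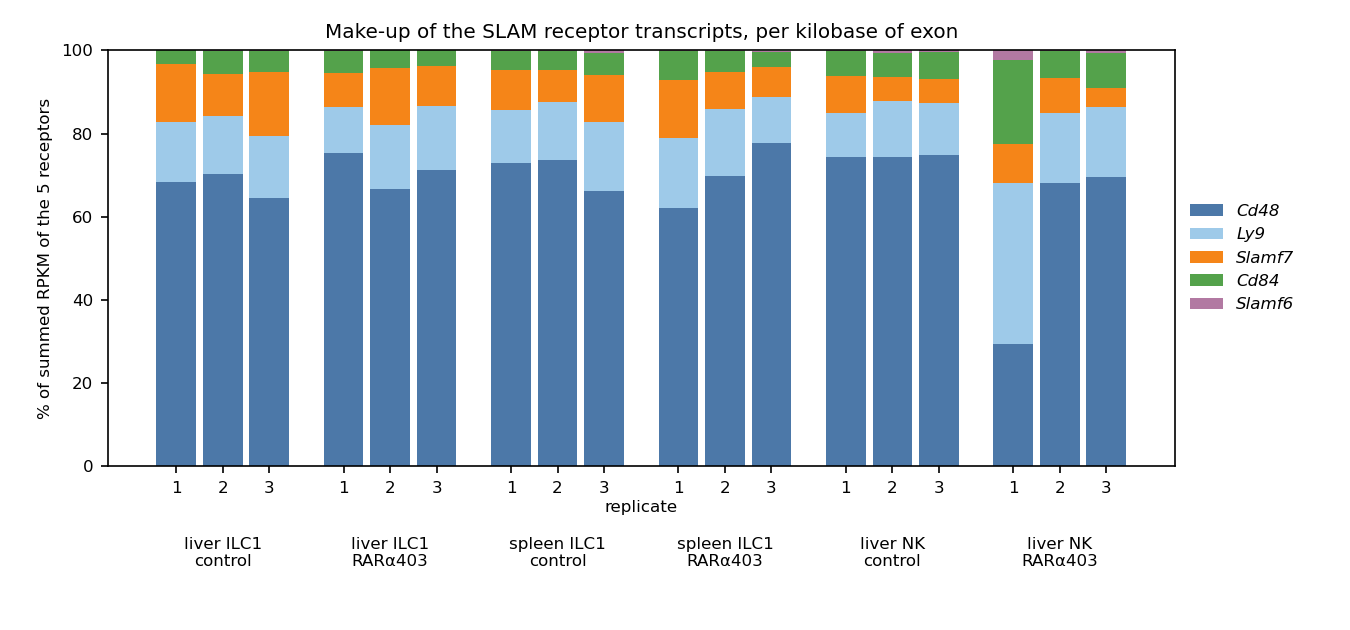
Percentage of the summed RPKM of the 5 receptor genes that each gene holds, by library, in stacked bars grouped by population and genotype. Cd48 takes 74.3 to 74.8% in control NK cells and 64.4 to 70.2% in control liver ILC1s, and liver NK RARa403 library 1, at 29.5%, stands out from every other bar.

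Genes were ranked against each other per length of exon, as log2 RPKM. The length was that of all annotated exons of a gene together, from 1.19 kb for Cd48 to 10.83 kb for Slamf6. Transcripts in these cells may be shorter, so the order depends on these lengths. In control spleen ILC1s, for example, the mean CPM of Slamf6 was 30.2 and that of Sh2d1b1, with 2.54 kb, was 33.4. Cd48 was the highest and Slamf6 the lowest of the 8 by group mean in all 6 groups, with Ly9 next to Cd48 in 5 of them. The exception was RARa403 NK cells, where Sh2d2a came next by its level in library 1 (8.16, beside 6.03 for Ly9). In libraries 2 and 3 Ly9 was at 6.73 and 6.76 and Sh2d2a at 6.27 and 5.64. In control liver ILC1s the order was Cd48 (8.89), Ly9 (6.67), Slamf7 (6.50), Sh2d2a (5.66), Cd84 (4.99), Sh2d1b1 (4.14), Sh2d1a (1.32) and Slamf6 (-1.09). Libraries of Ly9 and Slamf7 overlapped in that order, as did those of Cd84 and Sh2d1b1. In control liver NK cells Sh2d2a stood at 6.36, level with Ly9 at 6.51 within their spread, and Slamf7 at 5.64 overlapped Cd84 at 5.53. Sh2d1a and Sh2d1b1 overlapped there too, at 4.50 and 4.40. As a share of the summed receptor RPKM, Slamf7 held 10.1 to 15.2% in control liver ILC1s and 5.61 to 8.97% in control NK cells, without overlap. Cd48 held 64.4 to 70.2% and 74.3 to 74.8% in the same order, also without overlap, and the shares of a library add up to 100%.

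Counted over the set, 2 members were higher (Slamf7 and Ly9) and 4 were lower (Sh2d1a, Sh2d2a, Cd48 and Cd84) in every control liver ILC1 library than in every control NK library. Groups that did not overlap were found for 16.9% of all genes tested, 8.71% higher and 8.2% lower. The median log2 difference was -0.37 over the 8 members and 0.03 over all genes. Control spleen ILC1s against NK cells gave 1 member higher (Ly9) and 3 lower (Sh2d1a, Sh2d2a and Cd84) without overlap, beside 8.99% and 6.89% of all genes. None of the 8 passed the threshold there in edgeR, where 46 genes, or 0.313%, did, and organ and cell type differ together in that comparison. Control spleen against control liver ILC1s gave 2 members higher (Sh2d1a and Slamf6) and 0 lower without overlap, beside 4.82% and 4.15% of all genes. There 0 of 14714 genes passed in edgeR (0%), with 468 genes at an unadjusted p under 0.05, 26 past the threshold in DESeq2 and 0 in limma-voom. RARa403 liver ILC1s against RARa403 NK cells gave 2 members higher (Slamf7 and Cd48) and 3 lower (Sh2d1a, Sh2d2a and Slamf6) without overlap, beside 7.58% and 4.71% of all genes. For Cd48 the log2 difference was 0.82 (SE 0.49, adjusted p = 0.535) and 0.33 without liver NK RARa403 library 1. None of the 8 passed there in edgeR, where 59 genes, or 0.401%, did. DESeq2 called 3 of them (Sh2d1a, Sh2d2a and Slamf7), the fit without a filter on low counts 2 (Sh2d1a and Sh2d2a) and limma-voom 1 (Sh2d1a). The comparisons of ILC1s with NK cells within control mice share the NK libraries, and those between control ILC1s and NK cells and between both ILC1 groups share the liver ILC1 libraries.

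**Figure D4:**
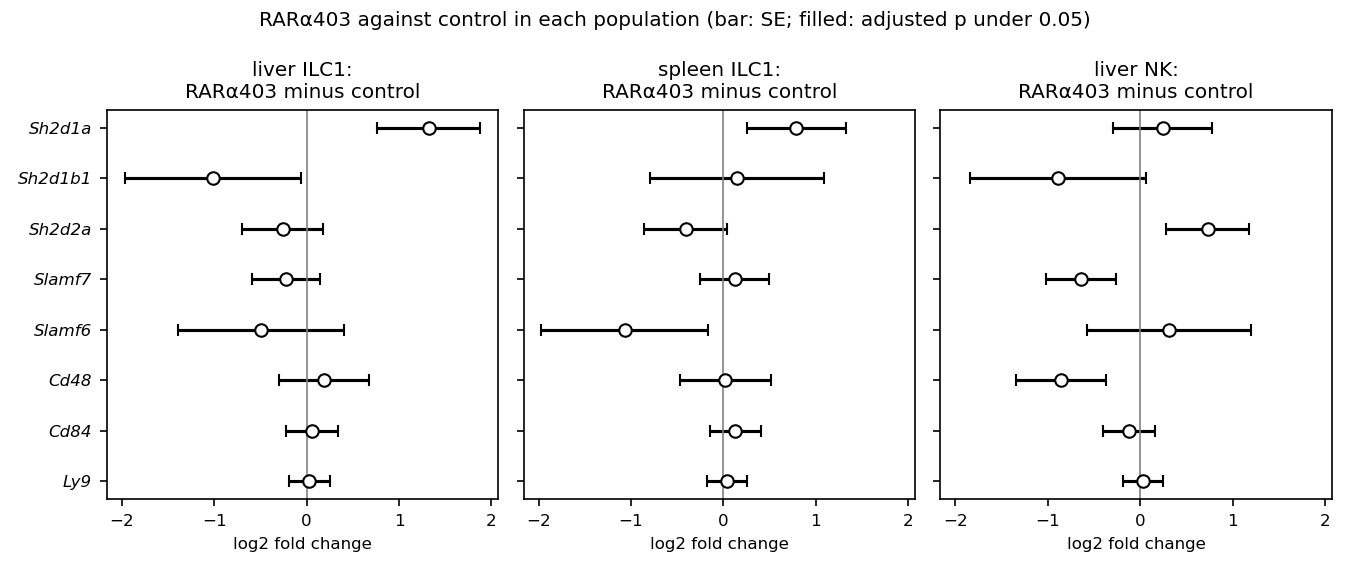
Log2 fold changes of RARa403 against control in liver ILC1s, spleen ILC1s and liver NK cells for the 8 genes, with the SE as a bar. No point is filled, since 0 members had an adjusted p under 0.05, and Sh2d1a in liver ILC1s, at 1.32, is the largest positive value.

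RARa403 changed none of the 8 transcripts past the threshold in any population. In edgeR 0 of 14714 genes (0%) passed in liver ILC1s, in spleen ILC1s and in liver NK cells. At an unadjusted p under 0.05 there were 432, 425 and 1418 genes in that order, DESeq2 called 33, 20 and 153, none of the 8 among them, and limma-voom 0 in each. Sh2d1a had the largest positive difference of the set, in liver ILC1s: 5.95, 4.0 and 5.01 log2 CPM with RARa403 against 3.68, 4.54 and 3.13 in controls, which overlapped. The log2 difference was 1.32 (SE 0.56, adjusted p = 1). It was 2.26 between the libraries of replicate 1 and 0.62 in replicates 2 and 3 alone, 0.71 without RARa403 library 1, and 1.26 with the term for Xist. The summed CPM of the NK cell markers was 3531, 1500 and 1446 in RARa403 liver ILC1 libraries 1 to 3. In control libraries 1 to 3 it was 1284, 1044 and 1737. RARa403 library 1, the highest in Sh2d1a, was the highest in that list. At 1955 it was the lowest of the 6 in the ILC1 list, beside 2516 to 3427. The other libraries did not follow that order: control library 3, the lowest of the 6 in Sh2d1a, was the highest control in the NK list. In spleen ILC1s the difference of Sh2d1a was 0.79 (SE 0.54, adjusted p = 1). It was 1.97 between the libraries of replicate 1, 0.16 in replicates 2 and 3 alone and 0.41 without RARa403 library 1. The NK list summed to 3116, 1527 and 3335 in the RARa403 spleen ILC1 libraries, in which Sh2d1a was also lowest in library 2, and to 1713 to 2160 in the controls. The part of NK cell transcripts in these differences was not tested. In liver NK cells the difference of Sh2d1a was 0.24 (SE 0.54, adjusted p = 0.935), or 0.08 without liver NK RARa403 library 1.

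In each population 1 member had groups that did not overlap. Sh2d1b1 was at 4.60, 4.39 and 4.80 log2 CPM in RARa403 liver ILC1s, below the control libraries at 5.31, 4.86 and 6.28, with a log2 difference of -1.01 (SE 0.95, adjusted p = 1). In that comparison 4.43% of all genes were lower without overlap. The SE of Sh2d1b1 drew on all 18 libraries, among them liver NK RARa403 library 1 with 0 counts of it. Sh2d2a was at 7.27, 7.64 and 7.79 in RARa403 spleen ILC1s, below the control libraries at 8.03, 8.07 and 7.85, with a log2 difference of -0.41 (SE 0.45, adjusted p = 1), beside 4.87% of all genes. Cd48 was at 5.89, 8.99 and 9.05 in RARa403 liver NK cells, below the control libraries at 9.42, 9.29 and 9.41, beside 4.72% of all genes. Its log2 difference of -0.86 (SE 0.49, adjusted p = 0.601) was -0.37 (SE 0.21, adjusted p = 1) without liver NK RARa403 library 1.

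The other members gave small or uncertain genotype differences. Cd84, whose promoter window holds the receptor half-site, was at 8.15, 7.51 and 7.47 log2 CPM in RARa403 liver ILC1s, 8.23, 7.72 and 7.61 in RARa403 spleen ILC1s and 7.75, 7.97 and 8.40 in RARa403 NK cells. Each of these groups overlapped its control group, at log2 differences of 0.06, 0.13 and -0.12 (SE 0.28 in each, adjusted p of 0.941 or more), the last being 0.00 without liver NK RARa403 library 1. In replicates 2 and 3 alone the liver ILC1 difference of Cd84 was -0.40, since replicate 1 gave 1.00. Ly9 differed by 0.03, 0.04 and 0.03 (SE 0.22 in each), the last being 0.21 without that library. Slamf7 differed by -0.22, 0.12 and -0.64 in liver ILC1s, spleen ILC1s and NK cells, the last being -0.32 without it. In NK cells Sh2d1b1 differed by -0.89 (SE 0.95) and Sh2d2a by 0.73 (SE 0.45), which were -0.33 and -0.39 without that library. Slamf6 differed by -0.49, -1.07 and 0.31 (SE 0.89 to 0.90), the last being 0.13 without it, so that a change of several fold could not have been told from none at 3 libraries a group. The median log2 difference of the 8 members was -0.10 in liver ILC1s and 0.08 in spleen ILC1s, beside 0.00 over all genes in each.

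The effect of RARa403 was not shown to differ between liver ILC1s and liver NK cells for any member. In the test of that difference 0 of 14714 genes (0%) passed in edgeR, with 913 at an unadjusted p under 0.05, 43 in DESeq2 and 0 in limma-voom. The difference of effects was 1.07 for Sh2d1a (SE 0.77, adjusted p = 0.907), 1.05 for Cd48 (SE 0.69, adjusted p = 0.872) and -0.99 for Sh2d2a (SE 0.63, adjusted p = 0.866). Without liver NK RARa403 library 1 these values were 1.25, 0.57 and 0.14, each with an adjusted p of 1.

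Of 23 other genes of the pathway (other receptors of the family, kinases, phosphatases and downstream enzymes), 20 passed the filter on low counts, and Slamf8, Slamf9 and Sh2d1b2 did not. In edgeR, 1 gene of the 20 was higher and 0 were lower in each comparison of liver ILC1s with liver NK cells, and 0 passed in the other comparisons. DESeq2 called 2 of the 20 in the control comparison of these cells and 3 in the RARa403 one, limma-voom 4 and 2. DESeq2 also called 1, Plcg1, in control spleen ILC1s against NK cells, in RARa403 against control NK cells and for the difference of the RARa403 effect, where limma-voom called 0. The gene called by edgeR was Plcg1, which encodes phospholipase C gamma-1, an enzyme that cleaves membrane phosphoinositides after receptor signalling. It had 462, 146 and 264 counts in control liver ILC1s and 17, 43 and 21 in control liver NK cells, without overlap. It was 14.5-fold higher in the ILC1s (log2 difference 3.85, SE 0.62, edgeR adjusted p = 0.0113). The adjusted p was 0.0812 without control NK library 1, 0.0839 without control NK library 3, and 0.07 with the replicate number within genotype as a block. In RARa403 mice Plcg1 had 227, 557 and 457 counts in liver ILC1s and 1, 0 and 0 in liver NK cells (edgeR adjusted p = 0.000124, and 0.634 when the 2 groups were fitted alone), and no fold is given at that level. Control spleen ILC1s had 304, 107 and 170 counts, all above the control NK cells, at a log2 difference of 2.86 (SE 0.59, adjusted p = 0.0543). That difference passed without liver NK RARa403 library 1 (0.00541), in DESeq2 (8.79e-07) and without the filter on low counts (0.0339). For RARa403 against control NK cells the adjusted p of Plcg1 was 0.0788 in edgeR, 0.0253 without that library, 0.00124 in DESeq2 and 9.61e-05 without the filter. For the difference of the RARa403 effect between liver ILC1s and NK cells it was 0.467, 0.0692, 0.00304 and 0.00433 in the same order.

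The partners of the adaptors on that list gave smaller differences. Fyn, the kinase that SAP recruits, was at 7.87, 8.25 and 8.01 log2 CPM in control liver ILC1s and at 9.36, 9.21 and 9.27 in control NK cells, without overlap. Its log2 difference of -1.23 (SE 0.35, adjusted p = 0.189) did not pass in edgeR, whereas the adjusted p was 0.0279 in DESeq2, 0.00595 in limma-voom, 0.0173 in replicates 2 and 3 alone and 0.00626 with only these groups fitted. In RARa403 mice the difference of Fyn was -1.31 (SE 0.35, adjusted p = 0.174 in edgeR), and it passed in DESeq2 (0.00959), in limma-voom (0.0122), without the filter (0.0265) and in replicates 2 and 3 alone (0.0108). Cd244a, the receptor for CD48, differed by 0.22 between control liver ILC1s and NK cells (SE 0.22, adjusted p = 1). The phosphatase genes Inpp5d and Ptpn6, whose products can bind SLAM tails, differed by -0.18 (SE 0.49) and 0.10 (SE 0.21) in the control comparison, both with an adjusted p of 1. In RARa403 mice Inpp5d differed by -1.51 between these cells (SE 0.50, adjusted p = 0.23 in edgeR) and passed in 2 of 16 alternative fits. It was at 10.89, 8.53 and 8.25 log2 CPM in RARa403 NK libraries 1 to 3. For Ptpn6 the difference was 0.04 (SE 0.21). Slamf1, the family's founding receptor, had 0 counts in 11 of the 18 libraries and at most 32 in any.

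By the root-mean-square difference of log2 CPM over the 18 libraries, each gene centred on its own mean, the 5 genes of 8298 whose pattern was most like that of Sh2d1a were Klra14-ps (0.66), Ubxn2b (0.67), Ctbp2 (0.67), Ybx3 (0.70) and Lgals1 (0.74). Sh2d1a itself varied by 1.31 about its mean on the same measure. Each of the 5 had its lowest group mean in control liver ILC1s, from 1.72 log2 CPM for Ctbp2 to 8.00 for Lgals1. Since they were picked for likeness to Sh2d1a, which is lowest there, this is no separate result. Without liver NK RARa403 library 1, Ctbp2 (0.58), Sypl (0.65) and Snx10 (0.65) came first, followed by Klra14-ps (0.67) and Ubxn2b (0.68). Klra14-ps is a pseudogene among near-identical Ly49 receptor genes, and its level is uncertain where reads were shared between copies. All these values come from the same libraries and share their depth.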

How the data were processed

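RNA of 200 sorted cells a library was amplified by SMART-seq, per the labels' protocols, in 18 libraries of 6 groups. The deposited table holds whole-number gene counts. Per the submitters' processing notes, the tools were fastp 0.23.0, HISAT2 2.1.0 and featureCounts of Subread 1.6.5, with mm10. The annotation, strand setting and treatment of shared reads are not stated, so levels of overlapping genes and close copies are uncertain. Of 46078 genes, 45143 had a symbol, and the other 935 held 0.0544% of counts. 0 columns lacked a sample.

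Genes were kept by edgeR's filterByExpr (minimum count 10), scaled by TMM and fitted with a mean per group over all 18 libraries (edgeR 4.0.16, R 4.3.3), which share 1 estimate of spread (common biological coefficient of variation 0.862). In 8 comparisons, p-values of the quasi-likelihood test were adjusted over 14714 genes by Benjamini-Hochberg (threshold 0.05). Log2 CPM levels used a prior count of 2. RPKM used GENCODE exon lengths. The SE is the fold change over the root of F. The scripts were tested on simulated data.

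All 8 members are named. Of 23 other pathway genes, those past the threshold and Cd244a, Fyn, Inpp5d and Ptpn6 are named, with the 5 genes most like each called member. The members and lists were chosen with earlier results of these data known.

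Same-numbered libraries deviated together between control liver ILC1s and NK cells (r over 8742 genes 0.104 to 0.175) and between both control ILC1 groups (0.11 to 0.137), above 0.1 for every pair. In the other comparisons at least 1 pair was below 0.1. Between control spleen ILC1s and NK cells the same-numbered pairs gave 0.079 to 0.199, and no pair of unlike number was above 0.008. Deviations were taken from the mean of each group's own libraries, so positive values for same-numbered pairs force low ones for the others. The low values are thus no separate evidence of pairing.

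Alternatives were DESeq2 1.42.0, RLE scaling, no filter, only the groups compared, the replicate block, the code number as a term, limma-voom (limma 3.58.1), replicates 2 and 3 only, and each library left out. The Xist term and the block within genotype were chosen after seeing the data.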

Additional observations from a re-analysis of the deposited data

How the results depend on the processing

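The 104 fold changes of the members and of Plcg1, Cd244a, Fyn, Inpp5d and Ptpn6 were recomputed 1768 times in all. The other pathway genes are not in these counts. Of these values, 1715 kept their direction and side of the threshold or crossed 0 within 1 SE (114 did), 29 newly passed the threshold, 10 no longer passed and 14 turned direction by more. Turned values were, without liver NK RARa403 library 1, with limma-voom and in replicates 2 and 3 alone in that order, -0.39, -0.39 and -0.34 for Sh2d2a and -0.15, -0.12 and -0.24 for Inpp5d in RARa403 against control NK cells. With each library left out they ran from -0.39 to 1.13 and from -0.15 to 1.61. For the difference of the RARa403 effect between liver ILC1s and NK cells they were 0.14, 0.23 and 0.29 for Sh2d2a (-1.38 to 0.14 with each library left out) and 0.04, 0.08 and 0.29 for Inpp5d (-1.72 to 0.04). In replicates 2 and 3 alone Cd84 turned to -0.40 in liver ILC1s and -0.39 for the difference of effects. In the main fit the values in NK cells were 0.73 for Sh2d2a and 1.21 for Inpp5d. For the difference of effects they were -0.99 and -1.32. Liver NK RARa403 library 1 held 1693 CPM of Sh2d2a, beside 296 to 540 in the other liver NK libraries. For Inpp5d it held 1899 CPM, beside 304 to 393. The cause of the turned values was not tested.

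The number of the 8 members past the threshold was 1 in control liver ILC1s against NK cells, 2 with limma-voom, 0 in replicates 2 and 3 alone and 0 to 1 with 1 library left out. It was 0 in control spleen ILC1s against NK cells, 1 with limma-voom, and 0 to 1 with 1 library left out. In RARa403 liver ILC1s against NK cells it was 0, with 3 in DESeq2, 2 without the filter, 1 with limma-voom and 0 to 1 with 1 library left out. In the other comparisons it was 0 in every fit. With the replicate block the count of members stayed at 1 for control liver ILC1s against NK cells, where Sh2d1a differed by -3.05 (edgeR, adjusted p = 0.0429), and at 0 elsewhere. Over all genes the block gave 69 calls instead of 89 there, 25 instead of 46 in control spleen ILC1s against NK cells and 34 instead of 59 in RARa403 liver ILC1s against NK cells. Over all alternatives these counts ran from 18 to 479, 7 to 316 and 0 to 794. RARa403 against control gave at most 43, 32 and 523 genes in liver ILC1s, spleen ILC1s and NK cells, control spleen against liver ILC1s at most 78 and the difference of effects at most 268, where the edgeR count was 0.

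With 39 to 92 counts of Sh2d1a and 3 to 65 of Slamf6 in control liver ILC1 libraries, few reads stand behind these values, whereas Cd48 and Ly9 had at least 2089 and 1163 counts there. With 3 libraries a group, the spread between libraries limits every comparison.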
